A study of Homo sapiens with 9 samples.

Results

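The 68 replication-dependent histone genes of human chromosomes 1 and 6 were examined in ChIP-seq peak lists from RPMI-8402, a human T-cell acute lymphoblastic leukaemia line. They were taken from the RefSeq table of GRCh38 as the protein-coding genes on these chromosomes whose symbols begin with H1- followed by 1 to 6, or with H2AC, H2BC, H3C or H4C, and they make up 68 of 20037 protein-coding genes on chromosomes 1 to 22, X and Y. The set holds 6 genes of the linker histone H1, 17 of H2A, 18 of H2B, 13 of H3 and 14 of H4. The series has 9 libraries. In 8 of them chromatin was recovered with an antibody to NKX2-1 (ab76013), a homeodomain transcription factor. Of these, 4 came from clones C12, C15, S04 and S36, whose genotype label reads NKX2-1 and which the design text calls knockout (KO), and 4 from wild-type (WT) clones WT10, WT13, WT28 and WT30. The last library was made with an antibody to H3K27ac, acetylated lysine 27 of histone H3, which marks active promoters and enhancers. Its genotype label also reads NKX2-1 and no clone is named for it, so whether these cells were knockout cells is not known from the labels. Each clone gave 1 library, so technical spread and spread between clones cannot be told apart, and the H3K27ac library has no replicate. Sequencing depth is unknown throughout, because peak lists hold no read numbers.

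Replication-dependent histone genes supply the histones that package newly copied DNA and are switched on in S phase. Most have no intron, and their mRNAs end in a stem-loop bound by SLBP instead of a poly(A) tail. They lie in clusters, named HIST1 on chromosome 6 and HIST2 and HIST3 on chromosome 1, where NPAT, a target of cyclin E and CDK2, gathers the transcription machinery in histone locus bodies. Many H2A and H2B genes lie head to head and share the DNA between their starts as a promoter.

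Members no more than 500 kb from the next were taken as a block, which gave 5 blocks. The HIST1 long block (chromosome 6, 25726063 to 26285534) holds 34 genes. The HIST1 short block (27132316 to 27147562) holds 5 and the HIST1 distal block (27807479 to 27893891) holds 16. On chromosome 1, the HIST2 block (149782689 to 149887965) holds 11 genes and the HIST3 pair (228457364 to 228458558) holds H2AC25 and H2BC26.

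H3K27ac covered most of the histone genes. A peak lay within 1 kb of a gene end at 59 of the 68 members (86.8%), against 19.0% of all protein-coding genes. The share was 21.3% of the other protein-coding genes of chromosomes 1 and 6 and 5.27% of the other protein-coding genes under 2 kb, the length class to which 60 of the 68 members belong. All 59 also had a peak over the gene body. With peaks of a deposited −log10 q of 10 or more alone, 51 of the 68 members had a peak, against 3.61% of all protein-coding genes. These are counts in a single library, and neighbouring members share peaks, so no test was run on the difference.

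**Figure D1:**
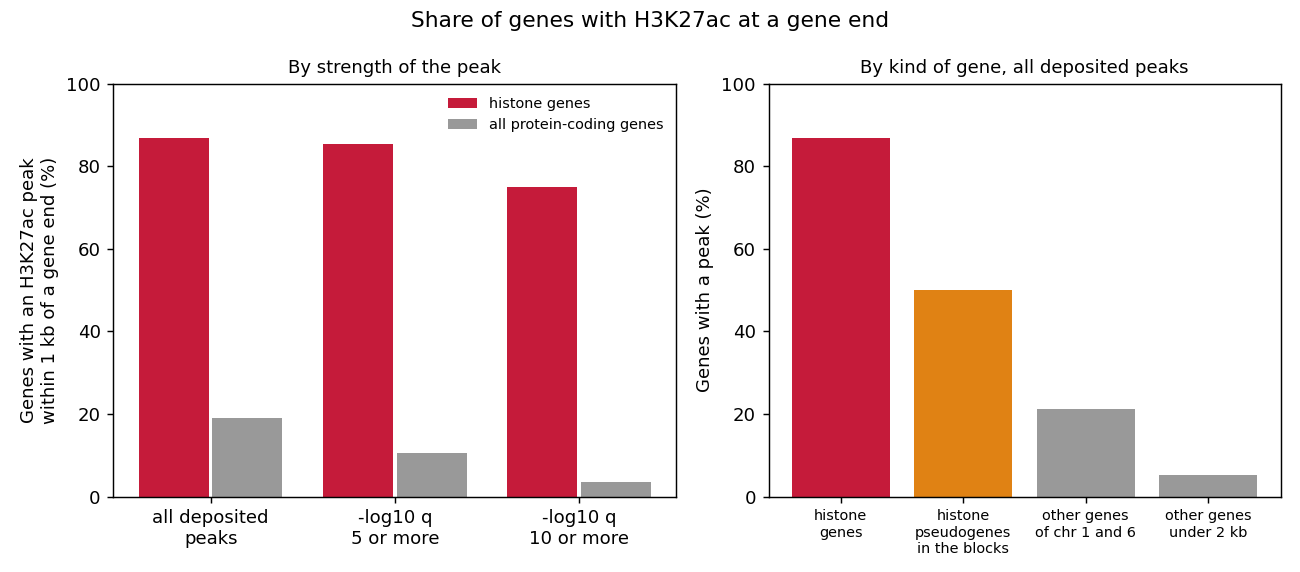
Share of genes (%, y axis) with an H3K27ac peak within 1 kb of a gene end in the single H3K27ac library. The left panel sets the 68 histone genes beside all 20037 protein-coding genes at 3 strengths of peak, and the right panel sets the histone genes (86.8%) beside the histone pseudogenes of the blocks (7 of 14), other genes of chromosomes 1 and 6 (21.3%) and other genes under 2 kb (5.27%). The histone genes stand highest in each panel.

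The 59 members drew on 71 distinct peaks, of which 31 touched 1 member, 36 touched 2 and 4 touched 3. Of the 71 peaks, 58 overlapped the body of a member, and 1 lay within 1 kb of a tRNA gene. The 71 peaks had a median deposited fold enrichment of 9.61 (interquartile range 7.15 to 13.5), a ratio that the authors' peak caller gives for the summit over its background. The 3936 other peaks within 1 kb of a gene end had a median of 6.43 (5.68 to 7.90). The median peak width was 836 bp at the histone genes and 429.5 bp at the other gene ends. For each member, the fold given from here on is that of the strongest peak over its body or, at genes of 2 kb or longer, over the first 500 bp. It exceeded 6.68, the median of the strongest peak within 1 kb at the other genes with a peak, at 55 of the 59 members, and 10.3, their 90th percentile, at 40.

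The HIST2 block held the highest enrichment. Its 11 genes all had a peak on the gene, with a median fold of 15.5 and a range of 7.13 to 19.4. The strongest member of all was H2AC19, an H2A gene with a peak of 19.4-fold (149849867 to 149852221, −log10 q 31.2) that covered the whole gene. A single peak of 16.5-fold (149885703 to 149887874) spanned the start of H2BC21 and reached over H2AC20 and into H2AC21. It covered 81.7% of H2AC21 but 0% of the 300 bases before that gene's start. Its summit lay 1690 bases downstream of that start, beyond the gene. The H3 genes H3C15 and H3C14 had 16.2-fold and 13.8-fold peaks, the H4 genes H4C14 and H4C15 had 13.2-fold and 12.05-fold, and H2AC18 had 15.5-fold. The edge gene H2BC18, which the table draws as 29682 bp long, had the lowest fold of the block (7.13), next to H3C13 with 9.61.

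Some HIST2 genes are copies of each other. The windows from 250 bases before to 50 after the gene start were identical between H2AC18 and H2AC19 over all bases compared, and likewise between H3C14 and H3C15 and between H4C14 and H4C15. In the HIST1 distal block, H4C11 and H4C12 were 98.3% identical. A read from such a stretch can be placed on either copy. How the authors treated such reads is not given in the sources used here, so the values of these 8 genes are uncertain. H2AC18 and H2AC19 are among them, so the median and the highest fold of the HIST2 block, and its rank among the blocks, are uncertain too. All 8 had a peak, and without them 51 of 60 members had one (85.0%). Only the start windows were compared, so whether the gene bodies of other members hold such stretches was not examined.

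The short and distal HIST1 blocks were marked throughout. In the short block all 5 genes had a peak, with folds of 14.2 to 16.3. A peak of 16.3-fold (27145124 to 27147681) lay over the start of H2BC12 and over H2AC12, a peak of 14.4-fold lay over the H4 gene H4C9, and a peak of 14.2-fold lay over both H2BC11 and H2AC11. In the distal block all 16 genes had a peak, with a median fold of 12.9. Its highest values were 15.96-fold over H2AC17 and H2BC17 at the block's end (27892096 to 27895202) and 14.98-fold over H2AC15 and H2BC15 (27836309 to 27839427). These peaks were also the widest of the block at 3107 and 3119 bp. H4C12 followed with 14.7-fold and the linker histone gene H1-5 with 13.8-fold. H2BC13, the gene at the other edge, had 12.05-fold, and the lowest values were 6.68-fold at H2BC14 and 8.39-fold at H3C12.

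The HIST3 pair was weakly marked. H2AC25 had a peak of 5.21-fold (228457161 to 228457393) that covered 5.88% of the gene, and H2BC26 had a peak of 6.68-fold (228458388 to 228458761) that covered 37.5% of it. Neither peak reached a −log10 q of 10, so that at this threshold 0 of the 2 genes had a peak.

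All 9 members without a peak lay in the HIST1 long block, where 25 of 34 genes (73.5%) had one, with a median fold of 10.8. The other 4 blocks held 34 members and none without a peak. The strongest genes of the long block were H3C7 with 15.96-fold (26249686 to 26251455), H2AC7 with 15.7-fold (26198413 to 26199423) and H3C8 with 14.98-fold (26270173 to 26272640). H3C4 is drawn in the table from the same start as H2AC7 and had the same peak, so that fold counts for both genes. A separate peak of 9.85-fold (26196062 to 26197322) lay over the other end of H3C4. H4C8, at the edge of the block, had 9.61-fold. The lowest folds among marked genes were 6.14 at H3C6 and 6.82 at H4C4.

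Of the members without a peak, H2AC1 and H2BC1, at the far edge, lay 266214 and 265431 bp from the nearest H3K27ac peak. Both encode testis histones, as does H1-6, which lay 3037 bp from a peak. H1-1, a linker histone gene expressed in few tissues, lay 2625 bp from a peak. The others were H2BC3 (9389 bp), H3C3 (8939 bp), H2BC6 (4274 bp), H4C6 (4825 bp) and H4C7 (2690 bp). Some were neighbours, since no other member lies between H2BC3 and H3C3 or between H4C6 and H4C7. A site without a peak was not called at the depth of this library, which is unknown, and is not shown to lack the mark.

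**Figure D2:**
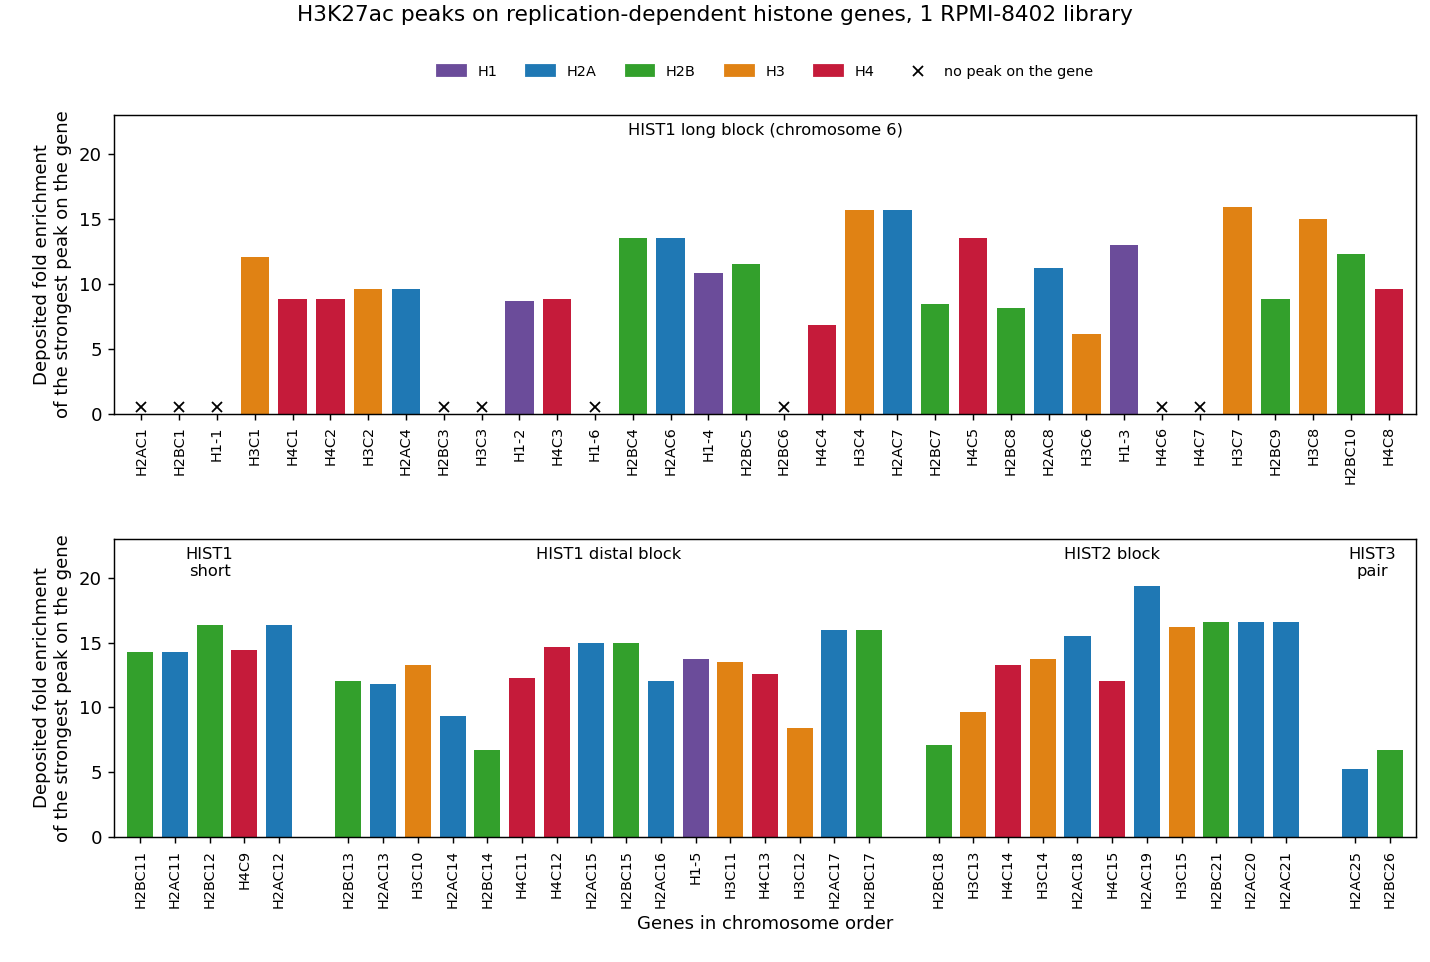
Deposited fold enrichment of the strongest H3K27ac peak on each of the 68 histone genes (y axis), in chromosome order within each block, from the single H3K27ac library. Bars are coloured by histone class and crosses mark the 9 genes without a peak, all in the HIST1 long block. The highest bar is H2AC19 (19.4) and the HIST3 pair stays at 5.21 and 6.68.

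Every class of histone was represented among the marked genes. A peak lay within 1 kb at 4 of 6 H1 genes, 16 of 17 H2A genes, 15 of 18 H2B genes, 12 of 13 H3 genes and 12 of 14 H4 genes. The median fold of the strongest peak on the gene was 11.9 for H1, 14.6 for H2A, 12.05 for H2B, 13.4 for H3 and 12.2 for H4. The ranges overlapped widely, from 5.21 to 19.4 for H2A and from 6.82 to 14.7 for H4, so the classes are not ordered by these values. Among the linker histones, which bind DNA between nucleosomes, H1-5 had 13.8-fold, H1-3 13.0-fold, H1-4 10.8-fold and H1-2 8.67-fold.

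Within and around the blocks, most peaks lay at the histone genes. Peaks covered 5.65% of the HIST1 long block, 36.8% of the short block, 20.9% of the distal block, 15.1% of the HIST2 block and 19.0% of the HIST3 pair, each with 1 kb to either side. The share of the long block includes the stretch from the end of H2BC1 (25727345) to the start of H1-1 (26017032), which holds no member and lowers it. Between the long and the short block, peaks covered 0.147% of 845 kb, and between the short and the distal block 0.0845% of 658 kb. Both stretches are rich in tRNA genes, with 46 and 51. Across chromosome 6 the share was 0.192% and across chromosome 1 it was 0.290%. Within the blocks 8 other protein-coding genes lay among the histone genes, 6 in the long block and 2 in the HIST2 block, and 0 of the 8 had a peak within 1 kb of a gene end, against 19.0% of all protein-coding genes. Between the long and the short block 3 of 9 protein-coding genes had one (BTN2A1, HMGN4 and ABT1), and between the short and the distal block 0 of 5 did. Of the 37 peaks in the long block, 5 lay away from the members, and in each of the other 4 blocks 0 did.

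Histone pseudogenes of the same blocks were marked less completely. A peak lay within 1 kb of 7 of 14 pseudogenes and over the body of 5, against 59 of 68 members for both measures. All 7 marked pseudogenes lay within 1013 bp of a member. They included H2BC20P, which lies inside the long gene model of H4C15 and under the 19.4-fold peak of H2AC19, and H2AC10P, 391 bp from a member, with 14.98-fold. Among the unmarked ones, H3P26 lay 191 bp from H1-1 and H2AC5P lay 187 bp from H2BC3, both members without a peak. The 4 pseudogenes over 2 kb from any member, which are H2BC2P, H2AC2P, H2AC3P and H2BP5, had 0 peaks. All 4 lay between H2BC1 and H1-1, which are members without a peak. Their nearest H3K27ac peak was 107025 to 260610 bp away, so they do not set pseudogenes apart from the members of that stretch.

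**Figure D3:**
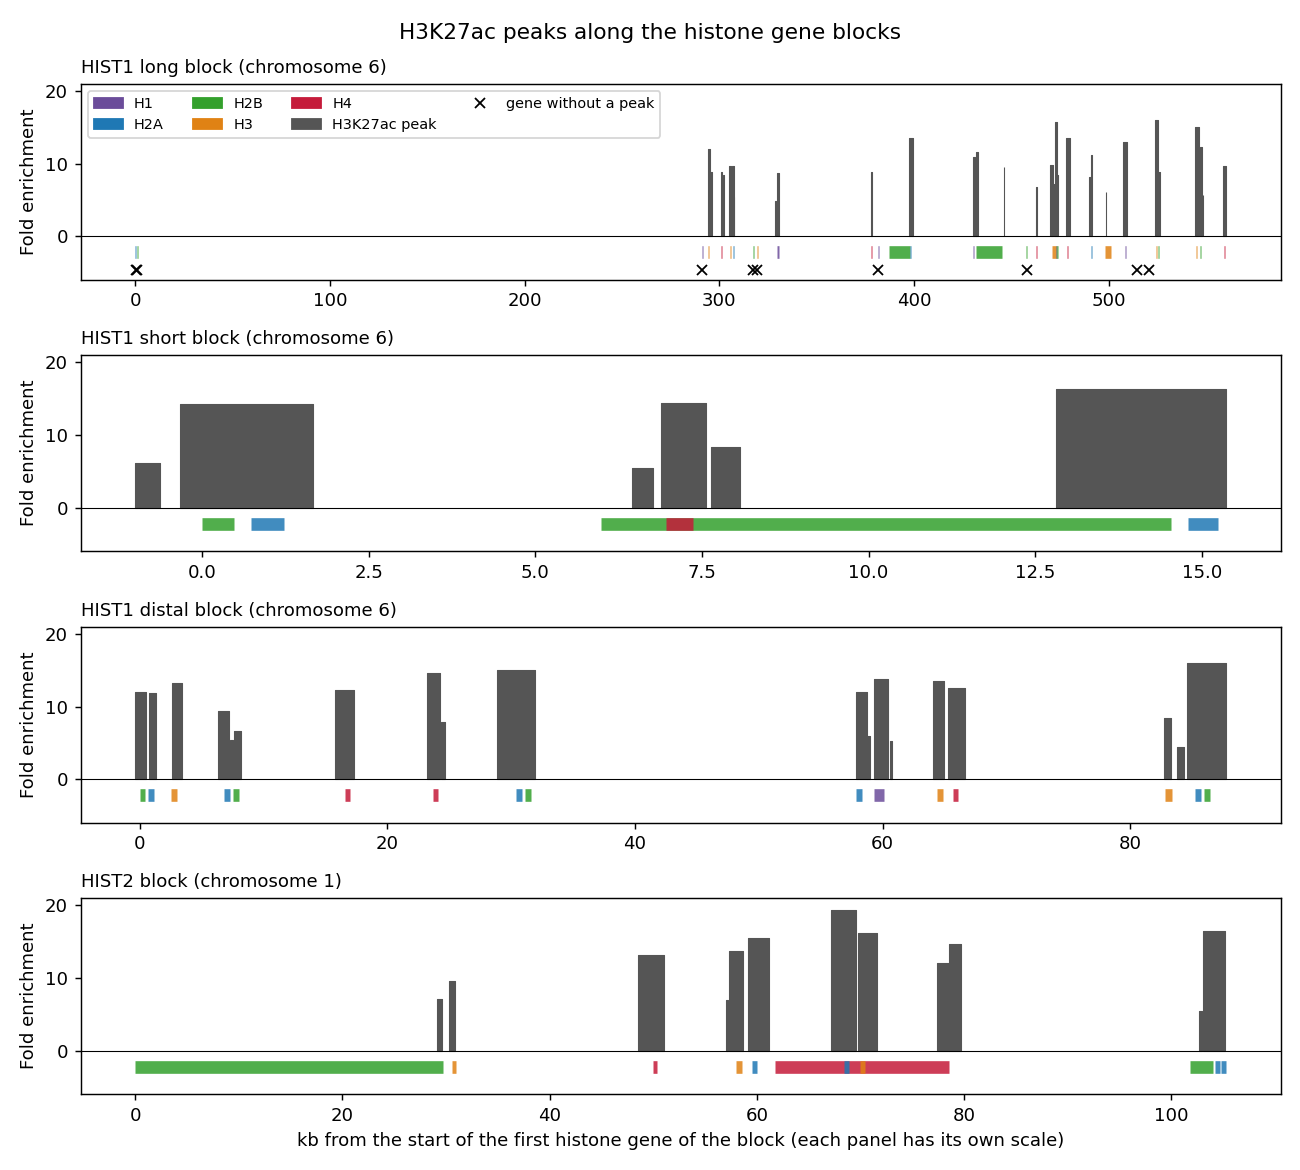
H3K27ac peaks within 1 kb of a histone gene end in the 4 larger blocks, drawn to scale in kb from the first histone gene of each block (x axis), with the deposited fold enrichment as the height (y axis). Coloured bars below the line are the histone genes by class and crosses mark genes without a peak. In the long block the H2AC1 and H2BC1 pair at 0 kb stands apart from the rest, and all 9 crosses are in that block.

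H3K27ac peaks covered most marked histone genes whole and reached past their short bodies, while the DNA just before the start was covered less often. The position and strand of the start came from RefSeq's table of start windows (GRCh38.p14), which matched 63 of the 68 members, all but H4C1, H4C3, H2AC12, H3C11 and H3C12. A peak lay within 1 kb of the start at 54 histone genes and at 3054 other protein-coding genes. The mean share of the 300 bases after the start under a peak was 90.1% at the histone genes and 47.8% at the other genes, and that of the 300 bases before it was 63.8% and 21.3%. A peak touched the start window of 48 of the 63 members (76.2%), against 8.62% of 15842 protein-coding genes with a window, and covered it whole at 23 (36.5%), against 2.03%. Downstream cover exceeded upstream cover at 27 of 54 histone genes, upstream cover was greater at 2, and both were equal at 25. Among the other genes, downstream cover was greater at 58.9%, upstream cover was greater at 14.1%, and both were equal at 825 of 3054. Ties were thus more common among the histone genes, so these shares do not show which set leans more to the downstream side. The class with the widest gap was H3, with means of 85.2% after and 43.0% before the start in 10 genes, and the narrowest was H2A, with 83.8% and 67.5% in 15 genes.

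Within 500 bases of the start, the DNA just before it was the least covered part. At 175 bases upstream 55.6% of the 54 histone genes were under a peak, against 74.1% at 500 bases upstream and 96.3% at 300 bases downstream. The other genes showed 20.3%, 23.3% and 64.4% at these positions, the last being their highest share. In the head-to-head H2A and H2B pairs described below, the position 500 bases upstream lies inside the partner gene. A peak on the partner is therefore part of the histone share there. The histone genes went on to 98.1% at 325 to 475 bases and to 54 of 54 genes at 500 to 550 bases downstream, where the other genes stood at 53.9% and 49.7%. The summit of the strongest peak within 1 kb of the start lay between 50 and 600 bases downstream at 33 histone genes (61.1%) and at 58.3% of the other genes. In the start window itself, from 250 bases before to 50 after the start, it lay at 0 of 54 histone genes and at 6.22% of the other genes. Neighbouring histone genes share peaks, so these are not 54 separate summits and the difference was not tested. At the remaining 21 histone genes it lay over 250 bases upstream (19) or 600 bases or more downstream (2).

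**Figure D4:**
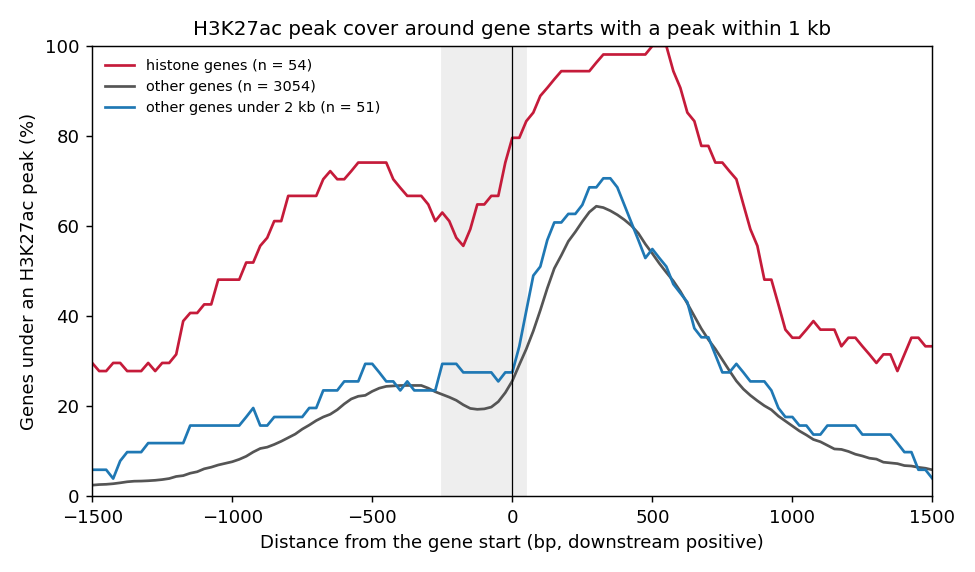
Share of genes under an H3K27ac peak (%, y axis) by distance from the gene start (bp, x axis), for 54 histone genes, 3054 other genes and 51 other genes under 2 kb that had a peak within 1 kb of the start. The grey band is the start window from 250 bases before to 50 after the start. The histone genes stand at 55.6% at 175 bases upstream and reach their highest share, 54 of 54 genes, at 500 to 550 bases downstream, where the other genes have passed their highest share of 64.4% at 300 bases.

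Head-to-head H2A and H2B pairs showed the same dip in part. The table held 11 such pairs with a window for both genes, whose starts were 193 to 247 bp apart. The DNA between the starts was wholly under a peak in 5 pairs, those of H2BC21 with H2AC20, H2BC4 with H2AC6, H2BC11 with H2AC11, H2AC15 with H2BC15 and H2AC17 with H2BC17. It was covered to 91.8% between H2AC14 and H2BC14, to 64.9% between H2AC7 and H2BC7, to 34.6% between H2BC13 and H2AC13 and to 19.0% between H2BC8 and H2AC8. At the H2BC8 and H2AC8 pair separate peaks of 8.14-fold and 11.2-fold covered both gene bodies whole and left most of the shared promoter uncovered. The remaining pairs had no cover between the starts, and these were H2AC25 with H2BC26, whose peaks lay at the outer ends, and H2AC1 with H2BC1, which had no peak at all. The neighbours H2BC12 and H2AC12 were not counted, because H2AC12 had no window. The DNA between these genes lay wholly under the 16.3-fold peak.

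The windows at the gene start were searched for 3 known promoter elements on both strands. They were the TATA box (TATAAA), the CCAAT box (CCAAT), which NF-Y binds, and the octamer (ATTTGCAT), the site of POU2F1 (Oct-1) in H2B promoters. No motif contains another, but matches may overlap. The CCAAT box was in all 6 H1, 16 H2A, 18 H2B and 11 H3 windows and in 3 of 12 H4 windows, against 36.4% of 15842 windows of protein-coding genes. The octamer was in 14 of 18 H2B and 11 of 16 H2A windows, in 1 of 11 H3 windows and in 0 of the 6 H1 and 12 H4 windows, against 1.72% of all windows. The H3 window is that of H3C4, which is the H2AC7 window counted again. The windows of head-to-head pairs overlap, so a motif between the starts counts for both genes. The TATA box was in 41 of 63 member windows (65.1%), against 9.75% of all windows.

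Windows of the genes without a peak held these motifs too. The CCAAT box was in 46 of 54 windows of members with a peak and in 8 of 9 windows of members without one. The octamer was in 22 of 54 and 4 of 9, and the TATA box in 35 of 54 and 6 of 9. The windows below show, for H1, H2B and H4, the member with the strongest peak over the window first and after it the member without a peak that lay nearest to one. They are RefSeq sequences of GRCh38.p14, 300 bases from 250 before to 50 after the start, 5′ to 3′ along the gene, and capitals mark the motifs on either strand.
H1-5 (chr6:27867539-27867838, minus strand): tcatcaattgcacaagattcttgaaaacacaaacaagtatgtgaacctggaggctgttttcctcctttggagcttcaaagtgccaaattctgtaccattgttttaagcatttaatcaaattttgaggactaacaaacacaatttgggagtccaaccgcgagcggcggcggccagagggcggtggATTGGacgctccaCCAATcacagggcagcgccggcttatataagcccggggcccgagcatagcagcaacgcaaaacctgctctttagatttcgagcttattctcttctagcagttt
H1-1 (chr6:26017738-26018037, minus strand): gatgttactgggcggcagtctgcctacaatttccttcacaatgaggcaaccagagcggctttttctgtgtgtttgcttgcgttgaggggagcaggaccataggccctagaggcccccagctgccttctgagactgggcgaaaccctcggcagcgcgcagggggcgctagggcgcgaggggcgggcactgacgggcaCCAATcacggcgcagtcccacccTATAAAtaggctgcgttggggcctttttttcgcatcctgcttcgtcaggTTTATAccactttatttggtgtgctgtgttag
H2BC21 (chr1:149886633-149886932, minus strand): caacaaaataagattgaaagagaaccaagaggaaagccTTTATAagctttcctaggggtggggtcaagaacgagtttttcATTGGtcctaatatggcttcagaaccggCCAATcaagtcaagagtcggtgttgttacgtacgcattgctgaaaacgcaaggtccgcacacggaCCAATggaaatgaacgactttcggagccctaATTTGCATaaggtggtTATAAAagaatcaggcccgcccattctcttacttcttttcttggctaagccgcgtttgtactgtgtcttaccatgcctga
H2BC6 (chr6:26183511-26183810, plus strand): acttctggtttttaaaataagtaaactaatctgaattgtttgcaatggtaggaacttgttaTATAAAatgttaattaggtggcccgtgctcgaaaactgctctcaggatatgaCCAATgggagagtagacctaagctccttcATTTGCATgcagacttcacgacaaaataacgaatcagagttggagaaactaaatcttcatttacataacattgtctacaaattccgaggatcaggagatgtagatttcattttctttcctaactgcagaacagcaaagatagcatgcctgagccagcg
H4C15 (chr1:149861110-149861409, minus strand): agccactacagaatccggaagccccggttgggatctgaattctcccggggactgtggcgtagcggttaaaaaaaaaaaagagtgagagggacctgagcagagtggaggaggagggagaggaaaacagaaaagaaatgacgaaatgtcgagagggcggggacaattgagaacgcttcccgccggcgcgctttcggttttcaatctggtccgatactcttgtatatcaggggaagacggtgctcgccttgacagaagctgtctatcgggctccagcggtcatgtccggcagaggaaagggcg
H4C7 (chr6:26246947-26247246, minus strand): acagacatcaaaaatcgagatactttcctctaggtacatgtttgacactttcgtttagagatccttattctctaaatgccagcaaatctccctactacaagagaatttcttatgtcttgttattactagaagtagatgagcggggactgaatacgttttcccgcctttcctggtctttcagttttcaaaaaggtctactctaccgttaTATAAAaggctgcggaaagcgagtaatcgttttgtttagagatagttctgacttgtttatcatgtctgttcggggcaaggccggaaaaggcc
In H1-5 and H1-1, CCAAT boxes stood at positions 185 and 198 and at position 197, counted from the first base of the window. In H2BC21 the octamer began at position 205, ahead of a TATA box at 221. H2BC6, which had no peak, also held an octamer, at position 143, with a CCAAT box at 114. H4C15, whose window was identical to that of H4C14, held none of the 3 motifs. Its window was touched by the 12.05-fold peak over the gene and by a 14.7-fold peak upstream of it. H4C7 held a TATA box at 209. A motif is only a match of letters and shows no binding.

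Genes that act on histone supply were marked to varying extents. Of 20 factors of histone gene expression, 10 had an H3K27ac peak within 1 kb of a gene end, with a median fold of 5.94, against 19.0% of all protein-coding genes. SLBP, which binds the histone mRNA stem-loop, had 10.1-fold, the cyclin gene CCNA2 9.36-fold and the S-phase regulator E2F1 9.05-fold. NPAT had 5.45-fold and POU2F1 5.70-fold. Those without a peak were CASP8AP2, HINFP, which binds H4 promoters, LSM10, LSM11, ZNF473, CPSF3, SYMPK, CSTF2, CCNE1 and ERI1.

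A list of 13 histone genes outside the blocks, most of them replication-independent and so expressed outside S phase as well, had a peak at 9 genes (69.2%), with a median fold of 7.90. The 9 include H4C16, an H4 gene of chromosome 12 that is itself of the replication-dependent kind, with 4.11-fold. MACROH2A1 had 11.3-fold, H2AX, the histone phosphorylated at DNA breaks, had 8.87-fold, and H2AZ1 and H2AZ2 had 8.63-fold each. H3-5, H2AJ and MACROH2A2 were among those without a peak. Among 19 histone chaperone genes, whose products carry and deposit histones, 13 had a peak (68.4%), with a median fold of 6.68. CHAF1A, a subunit of chromatin assembly factor 1, had 12.5-fold, MCM2 12.1-fold, and HJURP and SUPT16H 9.85-fold each. NASP, ASF1B, CHAF1B, RBBP7, UBN1 and CABIN1 had none. By the same measure, the strongest peak within 1 kb of a gene end, the median over the 59 marked members was 13.5.

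Marker genes were looked up in the same library. Of 10 T-lineage markers 4 had a peak, namely CD3E with 11.8-fold, CD3D, LCK and CD3G, and CD7, CD2, CD5, CD1A, RAG1 and PTCRA had none. A peak lay at 0 of 5 B-lineage, 0 of 5 myeloid and 0 of 4 lung and thyroid markers. With 19.0% of all protein-coding genes having a peak, lists this short say little about the line's identity.

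No peak of the NKX2-1 antibody lay near a histone gene in either genotype. The question here was whether NKX2-1 sites lie in the histone clusters. Within 10 kb of a member the KO clones C12, C15, S04 and S36 had 0, 0, 0 and 0 members with a peak, and the WT clones WT10, WT13, WT28 and WT30 also had 0, 0, 0 and 0. For 0 of 68 separate genes the usual limit on the share would be 4.41%. Neighbouring members share their 10 kb surroundings, so that limit does not hold here. Over all protein-coding genes the share with a peak within 10 kb was 0.489% in C12, 0.419% in C15, 0.344% in S04 and 1.52% in S36. It was 1.31% in WT10, 0.245% in WT13, 0.644% in WT28 and 0.409% in WT30. At these shares 68 genes would hold between 0.166 and 1.04 members with a peak, so a count of 0 is near the background of every library. The exact permutation test had nothing to compare, since all 8 values were equal (p = 1, two-sided, 70 assignments, n = 4 each).

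The authors' combined NKX2-1 list and their WT-only list also had 0 of the 68 members within 10 kb, against 0.744% and 1.03% of all protein-coding genes. The nearest combined-list peak lay 427 kb from H2BC26. The nearest peak to any member lay 2622 kb away in C12, 2623 kb in C15, 6507 kb in S04 and 334 kb in S36. It lay 532 kb away in WT10, 6507 kb in WT13, 683 kb in WT28 and 532 kb in WT30. The groups overlapped, and their means of 3021 ± 2562 kb in KO and 2064 ± 2963 kb in WT clones (SD, n = 4 each) differed by less than the spread between clones (exact permutation p = 0.657, two-sided; 1 after Benjamini-Hochberg adjustment over 3 comparisons; the smallest possible p is 0.0286). The share of all protein-coding genes near a peak averaged 0.693% ± 0.555 in KO and 0.652% ± 0.468 in WT clones (SD, n = 4 each; exact permutation p = 0.857, adjusted 1). None of the 71 H3K27ac peaks at members overlapped a peak of any of the 8 libraries.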

How the data were processed

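Per the submitters' processing notes, FastQC, Bowtie2, SAMtools, MACS2 and deepTools were used with genome build hg38. Versions, parameters, the peak-calling control and the treatment of reads that map to several places are not given in the sources used here. Deposited were 1 peak list per library, a combined NKX2-1 list and a WT-only list. In the deposited lists each peak has a fold enrichment ratio, a −log10 of a p-value and of a q-value, a score that is 10 times the −log10 q (not used), and a summit. Fold and −log10 q are the authors' values and were used to describe and filter the H3K27ac peaks; its lowest −log10 q was 2.10. Only coordinates were used from the WT-only list.

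Peaks of the autosomes (1 to 22), X and Y were joined to RefSeq genes of GRCh38.p14, the assembly that hg38 names, with python 3.11.15, pandas 2.3.3, numpy 2.4.6 and scipy 1.17.1. Coordinates are 1-based. An overlap of 1 bp counted. A gene end is either end of the gene as the table draws it. The strongest peak on a gene was taken over the body, or over the first 500 bp for genes of 2 kb or longer. Start windows are those of RefSeq, and of several windows of a gene the one nearest to the 5′ end in the gene table was used. Windows were compared with shifts of up to 20 bp. KO and WT clones were compared with an exact permutation test over 70 assignments. The counting was tested on simulated peaks at known distances. The members, gene lists and tests were chosen with earlier results of these data known. Genes were named by rule: the strongest 3 peaks, the edges and all peakless members of each block, and the strongest 3 and the peakless genes of each related list, of which 1 is not reported here. NPAT, POU2F1 and further members named with values were chosen after their values were seen. Distance, peak strength, background genes, window cover and libraries left out were varied.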

Additional observations from a re-analysis of the deposited data

Results flagged for a closer look

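Among the 4 KO clones, S36 stood apart in the share of protein-coding genes with an NKX2-1 antibody peak within 10 kb, with 1.52% against 0.344% to 0.489% in the other KO clones. Among the 4 WT clones, WT13 stood apart in the distance from its nearest peak to a histone gene, 6507 kb against 532 to 683 kb in the other WT clones. The distance was also 6507 kb in the KO clone S04, to the same gene, H2BC18. The share in WT13 was 0.245%, the lowest of the 8 libraries. S36 and WT13 each have a gap to the nearest other clone of their group that exceeds Dixon's 95% limit for 4 values. Chance exceeds this limit in about 1 in 20 groups, and more than 1 group and measure was checked. Neither bears on the count of histone genes with a peak, which was 0 in every library.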

How the results depend on the processing

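The count of 59 histone genes with an H3K27ac peak held within 1.5 times under every alternative run: 59 at 0.5 kb and at 2 kb, 64 at 5 kb, 58 with the summit within 1 kb, 58 and 51 at a −log10 q of 5 and 10 or more, and 51 without near-identical copies, a setting chosen after seeing the data. Counts by class and block did too, except the HIST3 pair, which had 0 genes with a peak at a −log10 q of 10 or more. With 68 members in all, the count of 59 had no room to rise 1.5 times. For all protein-coding genes the count of 3811 moved to 2153 and 724 at a −log10 q of 5 and 10 or more, and the share of 19.0% to 5.27% among other genes under 2 kb and 21.3% among other genes of chromosomes 1 and 6. The share over all protein-coding genes was 17.0% at 0.5 kb, 20.5% at 2 kb, 23.1% at 5 kb and 18.2% with the summit within 1 kb. The peaks at members numbered 71, and 40 at a −log10 q of 10 or more. With a 200 kb gap the blocks numbered 6, because H2AC1 and H2BC1, both without a peak, then form a block apart from the long block. Members with an NKX2-1 antibody peak stayed at 0 at 50 kb. The nearest peak of any of the 8 libraries lay 334 kb from a member (S36), so this 0 followed from the distances and was no separate check. At 1 kb, at a −log10 q of 5 or more and without each library in turn, 0 was fixed in advance by the 0 at 10 kb. No paired analysis was possible because the labels give KO and WT clones no shared numbers. The single H3K27ac library and unknown depth limit all peak counts.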

Other observations

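The table draws 8 histone genes at 2 kb or longer, most of them H2B genes (H2BC4, H2BC5, H2BC12, H2BC18 and H2BC21, beside H3C4, H3C6 and H4C15). All 8 had a peak, against 51 of the 60 shorter members, and their strongest peaks had a median fold of 12.8 against 12.5. In 3 of these genes the mark lay mostly at the start: peaks covered 6.10% of H2BC4, 6.40% of H2BC5 and 1.66% of H2BC18, while the 300 bases after the start were covered to 100%, 100% and 79.0%.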
